A study of Gallus gallus with 32 samples.

Results

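The 5 genes described here carry out sterol export and bile acid formation in the liver: ABCG5, ABCG8, ABCB11, CYP7A1 and AKR1D1. They were chosen by name as 5 rows of a table of 25619 genes, and each of the 5 symbols matched 1 gene of the chicken reference table. All 5 had a mean of at least 1 TPM (a transcript's share of a library's RNA, corrected for transcript length and scaled to a common total) and were therefore among the 11339 genes tested. The libraries came from livers of Arbor Acres broilers, a commercial meat chicken, with 8 libraries at each of 4 levels of added dietary arginine. The study's design counts 48 liver samples, and 32 libraries are analysed here. The levels were 0 g/kg (control), 1.8 g/kg (labelled Arg), 9 g/kg (5X Arg) and 18 g/kg (10X Arg). The labels give no age or sex of the birds, and they do not say whether each library is a separate bird, and a p-value here speaks only of the scatter among libraries, which may be partly technical.

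The liver disposes of cholesterol along 2 routes. In one, ABCG5 and ABCG8 pair into a single transporter of the canalicular membrane that moves cholesterol and plant sterols into bile. In the other, CYP7A1 starts the conversion of cholesterol to bile acids and sets the pace of the classical pathway, AKR1D1 reduces the steroid ring at a later step, and ABCB11, the bile salt export pump, moves the finished bile salts into the canaliculus. In mammals the nuclear receptor LXR (NR1H3) induces ABCG5 and ABCG8, while the bile acid receptor FXR (NR1H4) induces ABCB11 and represses CYP7A1 through SHP (NR0B2).

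The tissue was liver by its markers. Of 17 hepatocyte markers in the table, 16 averaged at least 1 TPM, with albumin (ALB) at a mean of 83013 TPM, and CPS1 was below 1 TPM. Enterocytes also make ABCG5 and ABCG8 in mammals, and the intestinal regulator CDX1 was listed at 0 in all 32 libraries. Of the 9 enterocyte markers in the table, SI, CDX1, CDX2, SLC5A1 and MUC2 averaged below 1 TPM. The other 4 did not, with VIL1 at 1.14, FABP2 at 6.83, ANPEP at 197 and APOB at 341 TPM. APOB was also on the hepatocyte list. The enterocyte sum had a median of 543 TPM at 9 g/kg and 565 TPM in control, so these markers alone do not settle the absence of enterocytes. The summed markers of other cells had medians of 232 TPM at 9 g/kg and 252 TPM in control for cholangiocytes, 166 and 133 TPM for endothelium, and 1211 and 856 TPM for macrophages. The hepatocyte sum had a median of 134177 TPM at 9 g/kg and 152578 TPM in control. The part of these sums in the differences at 9 g/kg below was not tested. In bulk tissue, fewer cells of a type and less RNA per cell cannot be told apart.

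The order of the 5 genes by TPM took 8 forms over the 32 libraries, the commonest in 14 and the next in 11. AKR1D1 was the most abundant of the 5 in 29 of 32 libraries, with a mean of 243 TPM over all libraries, and ranked 441 among the tested genes. CYP7A1 averaged 83.6 TPM and ABCB11 57.4 TPM, and CYP7A1 was the higher of these in 17 of 32 libraries, so their order was not fixed. ABCG5 averaged 9.90 TPM and ABCG8 3.96 TPM, with ABCG5 higher in 30 of 32 libraries. Per length, the 2 exporter transcripts were thus the scarcest of the 5.

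The 5 genes also differed in how much they varied among libraries of 1 diet. CYP7A1 had a within-dose SD of 1.51 on the log2(TPM + 1) scale, larger than 98.8% of the tested genes, and its extremes over the 32 libraries were 4.01 and 295 TPM. ABCB11 was the steadiest, with an SD of 0.36 against a median of 0.33 over all tested genes, and a range of 37.9 to 87.2 TPM. AKR1D1 (SD 0.81), ABCG8 (0.66) and ABCG5 (0.55) lay between them, at the 93.9, 90.0 and 83.9 percentiles of the tested genes. These SDs set the size of difference that 8 libraries a group could resolve, and for CYP7A1 the standard error of a dose difference was 0.71 log2.

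**Figure D1:**
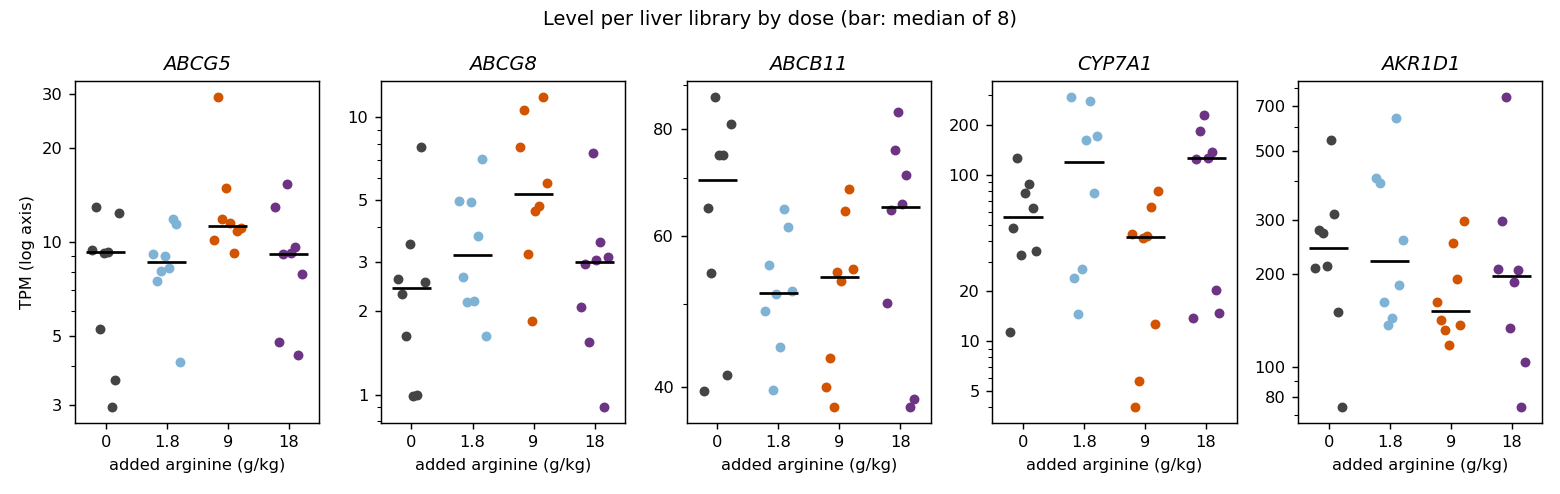
TPM of each gene (log axis) in every liver library, by added arginine in g/kg, with a bar at the median of 8 libraries. ABCG5 and ABCG8 had their highest medians at 9 g/kg, where CYP7A1 and AKR1D1 had their lowest, and every pair of doses overlapped.

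The sterol exporter genes had their highest values at 9 g/kg. ABCG5 had a lowest, median and highest value of 2.94, 9.27 and 12.9 TPM in control, 4.11, 8.645 and 11.8 TPM at 1.8 g/kg, 9.20, 11.3 and 29.4 TPM at 9 g/kg, and 4.34, 9.17 and 15.4 TPM at 18 g/kg. At 9 g/kg no library fell below 9.20 TPM, and 8 of 8 exceeded the control mean, but only 2 of 8 exceeded the highest control library. ABCG8 had a lowest, median and highest value of 0.99, 2.425 and 7.77 TPM in control, 1.62, 3.18 and 7.05 TPM at 1.8 g/kg, 1.84, 5.29 and 11.8 TPM at 9 g/kg, and 0.90, 2.995 and 7.42 TPM at 18 g/kg. Here 7 of 8 libraries at 9 g/kg exceeded the control mean and 3 of 8 the highest control library, control replicate 7.

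With limma, which fits all tested genes together, neither exporter gene passed at 9 g/kg at an adjusted p below 0.05. ABCG5 averaged 13.6 ± 6.57 TPM at 9 g/kg and 8.14 ± 3.82 TPM in control (SD, n = 8 each), a log2 difference of 0.72 ± 0.27 (SE) with a 95% interval of 0.18 to 1.26 and a limma adjusted p of 0.906. ABCG8 averaged 6.30 ± 3.50 TPM at 9 g/kg and 2.79 ± 2.19 TPM in control, a log2 difference of 0.95 ± 0.32 with an interval of 0.31 to 1.60 and a limma adjusted p of 0.863. On the log2(TPM + 1) scale these are 1.65-fold and 1.94-fold, and this scale understates the change of a low gene such as ABCG8. None of the 11339 genes passed at 9 g/kg (0%). Before adjustment, ABCG5 and ABCG8 were 2 of 552 genes with p below 0.05 at 9 g/kg, which is 4.87% of the genes tested. Of the ABCG5 difference, 0.56 remained without 9 g/kg replicate 2, the library with 29.4 TPM. The ABCG8 difference ran from 0.82 without 9 g/kg replicate 7 to 1.15 without control replicate 7. With limma's array weights, which weight libraries by how closely each followed the fit, it was 1.13. Its interval was then 0.53 to 1.73 (limma adjusted p = 0.0988), and the ABCG5 difference was 0.72 (adjusted p = 0.241).

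At the other doses the differences of both exporter genes from control were smaller than at 9 g/kg, and their intervals included 0. The intervals were wide. For ABCG8 at 1.8 g/kg it ran from -0.28 to 1.00, which holds the 0.95 found at 9 g/kg. At 1.8 g/kg the log2 differences from control were 0.17 ± 0.27 for ABCG5 and 0.36 ± 0.32 for ABCG8, and at 18 g/kg 0.20 ± 0.27 and 0.14 ± 0.32 (SE, limma adjusted p = 1 for all 4). Before adjustment 2.34% of the tested genes had p below 0.05 at 1.8 g/kg and 2.44% at 18 g/kg, with 0 of the 5 genes among them, and 0% were called at either dose. The 3 dose comparisons share the same 8 control libraries and are therefore not independent of each other. Leaving out control replicate 6 took the ABCG5 difference to 0.01 at 1.8 g/kg and 0.04 at 18 g/kg. Leaving out control replicate 7 took the ABCG8 difference to 0.56 at 1.8 g/kg and 0.34 at 18 g/kg, and leaving out 18 g/kg replicate 4 took it to -0.03 at 18 g/kg.

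By mean level the order of doses was 9, 18, 1.8 and 0 g/kg for ABCG5 and 9, 1.8, 18 and 0 g/kg for ABCG8. For ABCG5, 18 g/kg differed from 9 g/kg by -0.52 ± 0.27 log2 (limma adjusted p = 0.881) and from 1.8 g/kg by 0.03 ± 0.27 (adjusted p = 1). For ABCG8, 9 g/kg differed from 1.8 g/kg by 0.59 ± 0.32 (limma adjusted p = 1) and 18 g/kg from 9 g/kg by -0.81 ± 0.32 (adjusted p = 0.779). No neighbouring pair in either order passed. A straight line on dose gave a change of 0.22 ± 0.26 log2 over the full 18 g/kg for ABCG5 and 0.11 ± 0.32 for ABCG8, with a limma adjusted p of 1.00 for both. An unadjusted p below 0.05 for such a line was found for 2.03% of the tested genes and for 0 of the 5.

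**Figure D2:**
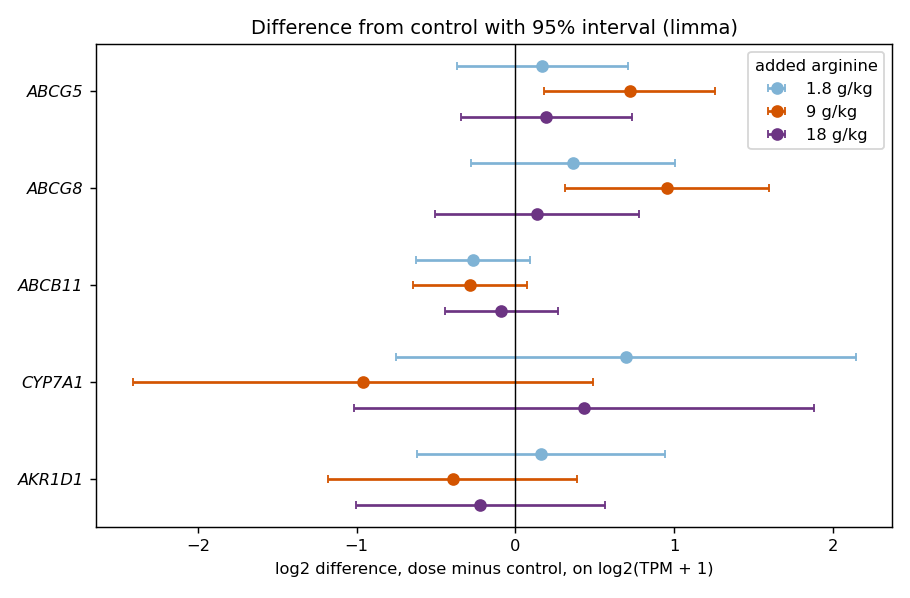
Log2 difference from control on log2(TPM + 1) at each dose, with the 95% interval of the limma fit. The intervals of ABCG5 and ABCG8 at 9 g/kg lie above 0, at 0.18 to 1.26 and 0.31 to 1.60, and all others include 0. No difference passed after adjustment over 11339 genes.

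Since the ABCG5 and ABCG8 proteins leave the endoplasmic reticulum as a pair, the ratio of their transcripts was also compared. Such a ratio within a library does not depend on how libraries are scaled. The log2 ratio of ABCG8 to ABCG5 averaged -1.68 ± 1.27 in control, -1.35 ± 0.48 at 1.8 g/kg, -1.23 ± 0.96 at 9 g/kg and -1.70 ± 0.72 at 18 g/kg (SD, n = 8 each). It differed from control by 0.33 ± 0.48 at 1.8 g/kg, 0.45 ± 0.56 at 9 g/kg and -0.02 ± 0.52 at 18 g/kg (SE). The exact 2-sided permutation tests gave p = 0.542, 0.446 and 0.967, or 0.814, 0.814 and 0.967 adjusted over the 3 comparisons.

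Control replicate 7 had more ABCG8 than ABCG5, with 7.77 and 3.59 TPM, and a log2 ratio of 1.11 where the other control libraries ran from -3.23 to -1.41. The only other library with ABCG8 above ABCG5 was 9 g/kg replicate 7, at 11.8 and 10.9 TPM. Without control replicate 7 the ratio differed from control by 0.72 at 1.8 g/kg, by 0.84 at 9 g/kg and by 0.38 at 18 g/kg, given without a test because that library was left out for its ratio. Without control replicate 5 it differed by 0.10 at 1.8 g/kg, by 0.22 at 9 g/kg and by -0.25 at 18 g/kg. The size of the ratio difference therefore moved in both directions with single control libraries. In control replicate 7 the 12 endothelial markers summed to 40.6 TPM, the lowest of all 32 libraries, and its part in the ratio was not tested.

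**Figure D3:**
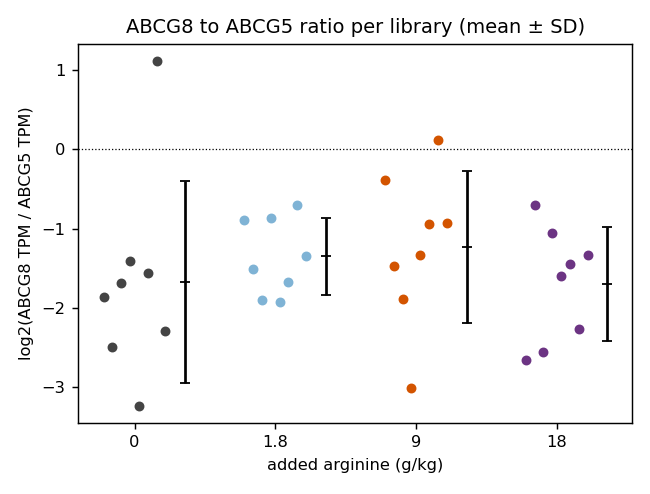
Log2 ratio of ABCG8 to ABCG5 TPM in each library by added arginine in g/kg, with mean ± SD beside the points. Control replicate 7 stands at 1.11, and the other 7 control libraries lie between -3.23 and -1.41.

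ABCB11, the bile salt export pump, had its lowest medians at 1.8 and 9 g/kg. Its lowest, median and highest values were 39.6, 69.6 and 87.2 TPM in control, 39.7, 51.5 and 64.55 TPM at 1.8 g/kg, 37.9, 53.8 and 68.1 TPM at 9 g/kg, and 38.0, 64.8 and 83.7 TPM at 18 g/kg. The lower ends of the 4 groups were alike, and the groups differed in how high their upper libraries reached. At 1.8 g/kg 8 of 8 libraries lay below the control mean, with 52.2 ± 8.22 TPM at 1.8 g/kg and 64.7 ± 17.9 TPM in control (SD, n = 8 each). The log2 differences from control were -0.27 ± 0.18, -0.28 ± 0.18 and -0.09 ± 0.18 at 1.8, 9 and 18 g/kg, with limma adjusted p-values of 1, 0.956 and 1. The interval at 9 g/kg ran from -0.64 to 0.07, and leaving out 1 library at a time gave differences of -0.38 to -0.22. With libraries weighted by how closely each followed the fit (limma's array weights) the difference was -0.48. Its interval was then -0.81 to -0.16 (limma adjusted p = 0.173). Of the alternatives this one lay farthest from 0, and the nearest to 0 gave -0.27. At 18 g/kg the difference ran from -0.18 without control replicate 1 to 0.00048 without 18 g/kg replicate 7.

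CYP7A1 had its lowest mean at 9 g/kg and its highest at 1.8 g/kg. The lowest, median and highest values were 11.4, 55.55 and 127 TPM in control, 14.55, 120.1 and 295 TPM at 1.8 g/kg, 4.01, 42.0 and 80.2 TPM at 9 g/kg, and 13.7, 126 and 228 TPM at 18 g/kg. At 1.8 g/kg and at 18 g/kg 4 of 8 libraries exceeded the highest control library, and at 9 g/kg none did while 2 of 8 lay below the lowest. At 18 g/kg the libraries fell into a set of 3 between 13.7 and 20.4 TPM and a set of 5 between 125 and 228 TPM, with none between. The other added doses also held a gap, from 27.24 to 77.42 TPM at 1.8 g/kg and from 12.67 to 41.43 TPM at 9 g/kg.

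Against this spread no dose difference of CYP7A1 passed. It averaged 131 ± 113 TPM at 1.8 g/kg, 36.9 ± 27.7 TPM at 9 g/kg and 106 ± 81.6 TPM at 18 g/kg, against 60.2 ± 36.6 TPM in control (SD, n = 8 each). The log2 differences from control were 0.70 ± 0.71, -0.96 ± 0.71 and 0.43 ± 0.71 at the 3 doses, with limma adjusted p-values of 1, 0.963 and 1. The 95% intervals were -0.76 to 2.15, -2.41 to 0.49 and -1.02 to 1.88, and each included 0. The difference of 9 from 1.8 g/kg was -1.66 ± 0.71, with 8 of 8 libraries at 9 g/kg below the 1.8 g/kg mean (limma adjusted p = 1). In that comparison ABCG5 (0.55 ± 0.27) and CYP7A1 were 2 of 321 genes with an unadjusted p below 0.05, which is 2.83% of the tested genes, and 0% were called. Without 9 g/kg replicate 2, the library with 4.01 TPM, the difference of CYP7A1 from control at 9 g/kg was -0.62, and with weighted libraries it was -1.48, with an interval of -2.83 to -0.13 (limma adjusted p = 0.324). Leaving out 1 library at a time gave 0.41 to 1.04 at 1.8 g/kg and 0.14 to 0.75 at 18 g/kg, the lower value at both without control replicate 1.

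AKR1D1, the ring reductase, had its lowest mean at 9 g/kg as well. The lowest, median and highest values were 74.2, 242 and 544 TPM in control, 137, 221 and 640.5 TPM at 1.8 g/kg, 118, 152 and 297 TPM at 9 g/kg, and 74.1, 197 and 752 TPM at 18 g/kg. The group at 9 g/kg lay inside the control range, with 7 of 8 libraries below the control mean. The log2 differences from control were 0.16 ± 0.39, -0.39 ± 0.39 and -0.22 ± 0.39 at 1.8, 9 and 18 g/kg, with limma adjusted p-values of 1, 0.964 and 1. Leaving out control replicate 5 took it to -0.21 at 9 g/kg, leaving out control replicate 8 took it to -0.62, and weighting the libraries took it to -0.59 (limma adjusted p = 0.513). The difference at 1.8 g/kg ran from -0.06 without control replicate 8 to 0.34 without control replicate 5, so its direction turned on single libraries. At 18 g/kg it was -0.50 without 18 g/kg replicate 3, the library with 752 TPM, and -0.03 without 18 g/kg replicate 7, the lowest of that dose.

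Over the 4 doses together, the limma F test gave unadjusted p-values of 0.0252 for ABCG8, 0.0575 for ABCG5, 0.122 for CYP7A1, 0.311 for ABCB11 and 0.499 for AKR1D1. After adjustment the limma adjusted p was 1.00 for all 5. An unadjusted p below 0.05 was found for 3.18% of the tested genes and a call for 0%. In the comparison of 18 with 9 g/kg, 5.69% of the tested genes had an unadjusted p below 0.05 in limma, ABCG8 among them, and 0% were called. Between 18 and 1.8 g/kg it was 2.04%, with 0 of the 5 genes among them, and 0% were called.

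Among the 5 genes, CYP7A1 varied from library to library with both of the other bile acid genes, AKR1D1 and ABCB11. Of the 10 pairs among the 5 genes, CYP7A1 with AKR1D1 had the highest correlation of log2(TPM + 1) over 32 libraries, with Pearson's r = 0.51 (permutation p = 0.00251, 0.0251 adjusted over the 10 pairs) and Spearman's rho = 0.51 (permutation p = 0.00355, 0.0355 adjusted). Without the 2 libraries farthest from the CYP7A1 median it was 0.49, without those farthest from the AKR1D1 median 0.41, with dose means removed 0.49, and within the 4 doses it ran from 0.39 to 0.62. CYP7A1 with ABCB11 gave r = 0.48 (permutation p = 0.00603, 0.0296 adjusted) and rho = 0.45 (permutation p = 0.00989, 0.049 adjusted). Without the 2 libraries farthest from the ABCB11 median it was 0.49, and without those farthest from the CYP7A1 median 0.39. Within control, 1.8 and 9 g/kg it was 0.24, 0.35 and 0.44. At 18 g/kg it was 0.93, where the separate sets of 3 and 5 CYP7A1 values enter it. The same sets enter the r of 0.54 of CYP7A1 with AKR1D1 at 18 g/kg. The gaps in CYP7A1 at 1.8 and 9 g/kg enter the values of those doses. ABCB11 with AKR1D1 gave r = 0.35 (permutation p = 0.0472, 0.118 adjusted) and did not pass. That result depended on how libraries were scaled. With median-ratio rescaling r was 0.48 (permutation p = 0.00619, not adjusted over the 10 pairs).

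ABCG5 and ABCG8 gave r = 0.45 (permutation p = 0.00888, 0.0296 adjusted) and rho = 0.35 (permutation p = 0.0481, 0.12 adjusted). That relation was weaker without a few libraries. Without the 2 farthest from the ABCG5 median, control replicate 6 and 9 g/kg replicate 2, r was 0.24, without those farthest from the ABCG8 median it was 0.33, and with dose means removed it was 0.29. Within doses it was -0.08 in control, 0.75 at 1.8 g/kg, 0.20 at 9 g/kg and 0.61 at 18 g/kg. Without control replicate 7 it was 0.60 over 31 libraries. The 2 exporter genes gave r of -0.30 to 0.09 with the 3 bile acid genes, the lowest for ABCG5 with CYP7A1 (permutation p = 0.0918, 0.184 adjusted), and none of those 6 pairs passed.

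**Figure D4:**
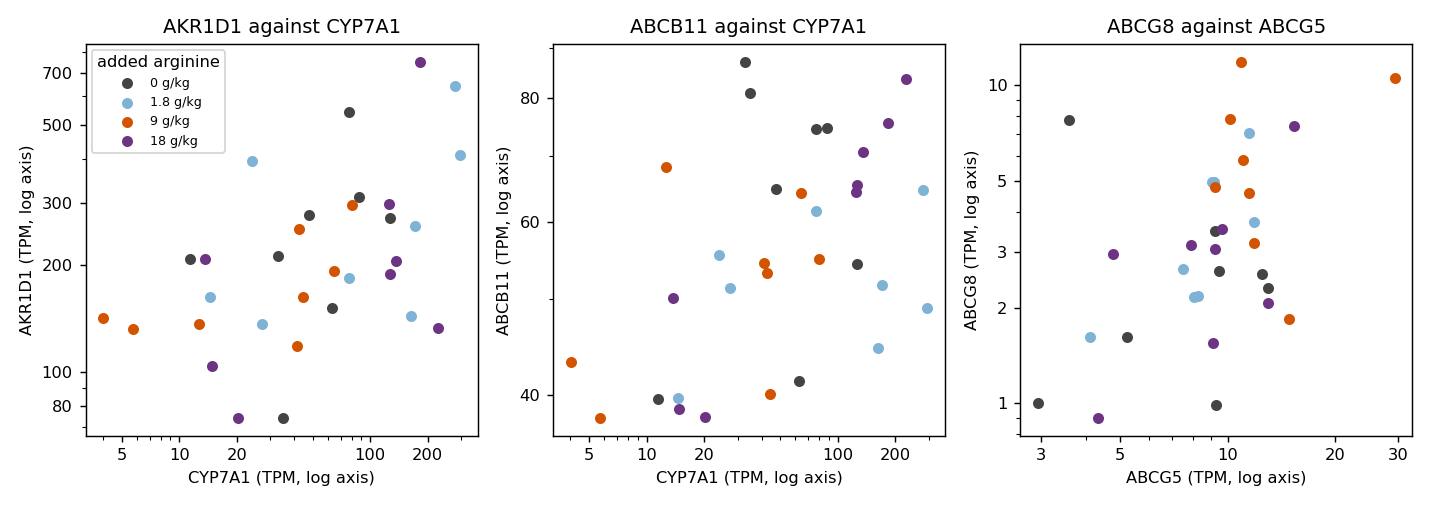
TPM of AKR1D1 and ABCB11 against CYP7A1, and of ABCG8 against ABCG5 (log axes), 1 point per library coloured by added arginine. Pearson's r of log2(TPM + 1) over the 32 libraries is 0.51, 0.48 and 0.45, and 0.24 for the exporter pair without the 2 libraries farthest out on ABCG5.

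The rest of the pathway was described by 5 lists of genes, and 0 of their tested genes were called at any dose. Of 15 tested genes of bile acid synthesis and conjugation, 7 were higher and 8 lower than control at 9 g/kg, with a median log2 difference of -0.03 against 0.00 over all tested genes, and 0 had an unadjusted p below 0.05 in limma. CYP8B1, the sterol 12-alpha-hydroxylase that sets the ratio of primary bile acids in mammals, averaged 227 ± 208, 94.0 ± 57.7 and 242 ± 201 TPM at 1.8, 9 and 18 g/kg, against 150.0 ± 108 TPM in control. Like CYP7A1 it had its lowest mean at 9 g/kg, then control, with both other doses above, and its limma adjusted p-values were 1, 0.963 and 1. CYP27A1, which starts the alternative pathway, averaged 281 ± 46.0 TPM at 9 g/kg and 252 ± 36.4 TPM in control (adjusted p = 0.963). BAAT, which conjugates bile acids to amino acids, averaged 56.0 ± 9.33 TPM at 9 g/kg and 51.1 ± 9.84 TPM in control (adjusted p = 0.964). CYP7B1, of the same pathway as CYP27A1, averaged 45.9 ± 8.66 TPM at 9 g/kg and 43.1 ± 10.7 TPM in control (adjusted p = 0.98).

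Of 14 tested transporters of bile acids and the canaliculus, 6 were higher and 8 lower at 9 g/kg, with a median of -0.05 log2. SLCO1B1, an uptake carrier for organic anions, averaged 2.91 ± 0.89 TPM at 9 g/kg and 7.00 ± 4.80 TPM in control, below the control mean in 8 of 8 libraries (-0.85 ± 0.28 log2, limma adjusted p = 0.88). SLCO2B1, another anion carrier, averaged 38.5 ± 11.6 TPM at 9 g/kg and 48.9 ± 14.0 TPM in control (adjusted p = 0.956). ABCC3, an export pump of the sinusoidal side, averaged 1.90 ± 0.90 TPM at 1.8 g/kg and 1.29 ± 0.39 TPM in control (limma adjusted p = 1). SLC10A1, the main bile salt uptake carrier of mammalian liver, was listed at 0 in all 32 libraries.

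Of 20 tested regulators, 12 were higher and 8 lower at 9 g/kg, with a median of 0.05 log2. The receptors of the pathway differed little, NR1H3 (LXR) with 56.9 ± 17.2 TPM at 9 g/kg and 52.0 ± 15.2 TPM in control, and NR1H4 (FXR) with 54.4 ± 19.4 TPM and 46.0 ± 13.0 TPM. NR0B2 (SHP) averaged 23.7 ± 11.8 TPM at 9 g/kg and 24.0 ± 9.65 TPM in control. Their limma adjusted p-values were 0.98, 0.963 and 0.995. NCOA1, a nuclear receptor coactivator, averaged 9.49 ± 1.74 TPM at 9 g/kg and 7.29 ± 1.52 TPM in control (0.34 ± 0.12 log2, limma adjusted p = 0.88). KLB, the coreceptor through which FGF19 represses CYP7A1 in mammals, averaged 13.8 ± 3.45 TPM at 9 g/kg and 18.6 ± 5.01 TPM in control (adjusted p = 0.956).

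Of 21 tested genes of cholesterol efflux, storage and lipoprotein handling, ABCG5 and ABCG8 included, 15 were higher and 6 lower at 9 g/kg. The median at that dose was 0.15 log2. At 1.8 g/kg 16 were higher and 5 lower, and at 18 g/kg 14 were higher and 7 lower. In limma 3 had an unadjusted p below 0.05 at 9 g/kg, beside 4.87% of all tested genes. ABCG5 and ABCG8 themselves were among the 3. The third was CETP, which exchanges cholesteryl esters between lipoproteins. CETP averaged 47.7 ± 27.1, 49.4 ± 20.9 and 38.9 ± 8.68 TPM at 1.8, 9 and 18 g/kg, against 22.1 ± 9.78 TPM in control. It exceeded the control mean in 7 of 8 libraries at each dose, and its log2 differences were 1.09, 1.22 and 0.96 ± 0.35, with limma adjusted p-values of 1, 0.761 and 1. These differences share the same 8 control libraries, the lowest at 3.17 TPM, and are therefore not independent of each other. LCAT, which forms those esters in plasma, averaged 297 ± 51.9 TPM at 9 g/kg and 245 ± 88.3 TPM in control (adjusted p = 0.958). APOA1, the main protein of high density lipoprotein, averaged 11733 ± 3654 TPM at 9 g/kg and 15421 ± 3917 TPM in control (adjusted p = 0.956).

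CYP7A1 varied with the genes that make cholesterol. Of 19 tested genes of cholesterol synthesis and uptake, 16 had a positive r with CYP7A1 over the 32 libraries with dose means removed, beside 47.0% of all tested genes. The median r was 0.54, beside -0.01 over all tested genes. The values were 0.66 for MSMO1, 0.62 for SQLE and 0.60 for CYP51A1, all enzymes of the pathway, named here for their r after the values were seen. INSIG2, which holds the SREBP activation complex in the endoplasmic reticulum, was at -0.59, and INSIG1 and HMGCS1 were at -0.26 and -0.27. The same median was 0.28 for AKR1D1, 0.11 for ABCB11, 0.10 for ABCG8 and -0.10 for ABCG5. Over all tested genes the median r was -0.12 for AKR1D1, 0.00 for ABCB11, -0.06 for ABCG8 and 0.00 for ABCG5. Without control replicate 7, and with dose means kept, the median r with the 19 genes was -0.03 for ABCG8, 0.19 for ABCB11 and 0.54 for CYP7A1. These values therefore do not show the effect of leaving out that library alone. These correlations are descriptions over libraries that share their scaling, and the 19 genes also vary with each other. With the 14 other tested genes of bile acid synthesis and conjugation, the median r of CYP7A1 with dose means removed was 0.14, with 9 positive. With the 14 tested transporters it was -0.03, with 5 positive. AKR1D1 and ABCB11 had the highest r of their lists.

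By dose, the median r of CYP7A1 with these 19 genes was 0.53 in control, 0.74 at 1.8 g/kg, -0.10 at 9 g/kg and 0.85 at 18 g/kg. The separate sets of CYP7A1 values enter it at 18 g/kg, and the gaps at 1.8 and 9 g/kg enter it there. Leaving out each library in turn gave 0.27 to 0.68 in control, 0.57 to 0.82 at 1.8 g/kg, -0.41 to 0.14 at 9 g/kg and 0.80 to 0.89 at 18 g/kg. Whether 9 g/kg differs from the other doses in this respect was not tested. Of the 19 genes 16 were lower than control at 9 g/kg, with a median of -0.31 log2 and 0 at an unadjusted p below 0.05 in limma. At 1.8 and 18 g/kg 12 and 11 were higher, with medians of 0.07 and 0.04. Over all tested genes the medians were 0.00 at 9 g/kg, 0.03 at 1.8 g/kg and 0.02 at 18 g/kg. LSS, lanosterol synthase, averaged 38.5 ± 23.7 TPM at 9 g/kg and 50.4 ± 19.1 TPM in control (adjusted p = 0.963). SC5D, a late enzyme of the pathway, averaged 108 ± 44.7 TPM at 9 g/kg and 117 ± 24.9 TPM in control (adjusted p = 0.964), and INSIG2 128 ± 41.2 TPM at 9 g/kg and 108 ± 24.7 TPM in control (adjusted p = 0.966).

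**Figure D5:**
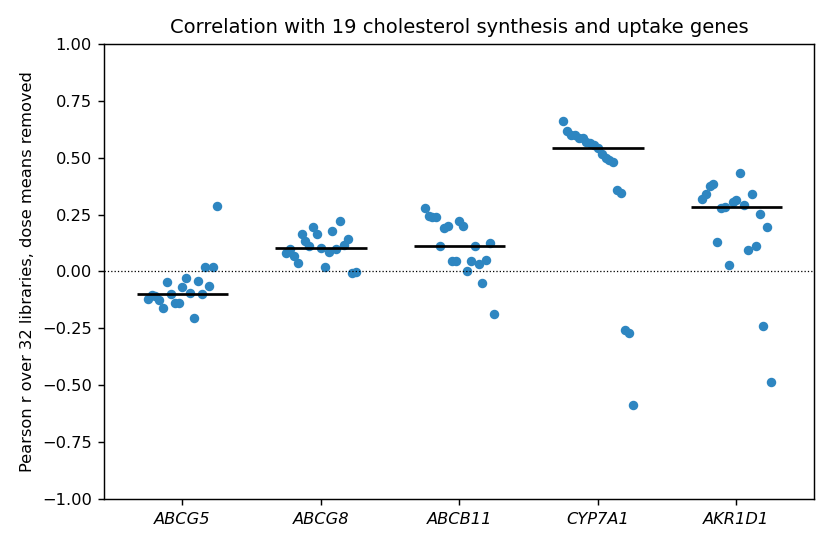
Pearson's r of each of 19 cholesterol synthesis and uptake genes with each of the 5 genes over 32 libraries, with dose means removed, 1 point per gene and a bar at the median. The medians are -0.10 for ABCG5, 0.10 for ABCG8, 0.11 for ABCB11, 0.54 for CYP7A1 and 0.28 for AKR1D1.

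The genes whose values followed each of the 5 most closely were also listed, by Pearson's r over the 32 libraries with dose means removed. For CYP7A1 they were LOC112533565 (0.70), SCAP (0.69), FAM105B (0.68), UBXN2B (0.68) and the acetoacetyl-CoA synthetase AACS (0.67). SCAP escorts the sterol-regulated SREBP factors out of the endoplasmic reticulum. ABCB11 had closer companions than the other 4 genes, with TRHDE at 0.84, the glycogen branching enzyme GBE1 at 0.83, LOC418114 at 0.80 and ADAMTS5 at 0.77. For AKR1D1 they were LOC423222 (0.56), TECTA (0.53), KLB (0.53), CORO6 (0.52) and SPATA4 (0.51). For ABCG5 they were the proline catabolic enzyme ALDH4A1 (0.55), LOC101749599 (0.54), DRAM2 (0.54), SPSB3 (0.52) and the drug efflux pump ABCB1 (0.51). For ABCG8 they were LOC101750892 (0.55), the clock output factor HLF (0.54), LOC121106600 (0.54), SALL1 (0.52) and ASAP3 (0.52). These are the highest r among all tested genes and were selected for that, so they carry no test. The annotated spans of LOC112533565 and UBXN2B overlap AKR1D1 and CYP7A1, and whether reads were assigned by strand is not given in the sources used here.

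The W-linked transcript HINTW, which only female birds carry, was above 0 in 2 control libraries and in 3, 4 and 3 libraries at 1.8, 9 and 18 g/kg. Taken as a covariate over the 32 libraries, log2(HINTW + 1) was called for 2.29% of the tested genes in limma, and for 0 of the 5 genes, with adjusted p-values of 0.757 for ABCG8 to 0.975 for CYP7A1. With this covariate the log2 differences from control at 9 g/kg were 0.87 for ABCG8 and 0.69 for ABCG5 (limma adjusted p = 0.991 for both).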

How the data were processed

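Liver messenger RNA was sequenced in 32 libraries, 8 at each of 4 doses. The tools named, per the submitters' processing notes, are HISAT2, fastp, RSEM and StringTie. Their versions and roles and the genome build are not given in the sources used here. The authors deposited TPM values, which sum to 998707 to 999281 per library. Counts were not used, so depth is unknown and no counting interval is given.

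Values were log2(TPM + 1), and a gene was tested where its mean over the 32 libraries reached 1 TPM. A model with 1 mean per dose was fitted to all of them with limma 3.58.1 in R 4.3.3 (eBayes, trend=TRUE). P-values are 2-sided and adjusted by the Benjamini-Hochberg method over 11339 genes, and a call needs an adjusted p below 0.05. Ratios were tested by exact permutation and correlations by 100000 permutations (scipy 1.17.1). The limma fit was also run on simulated data in which each gene was drawn independently, which these genes were not. Its outcome is not given here. No sequences or coordinates are given. Names were matched to the reference table of assembly GRCg7b.

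The 5 genes, the lists and the tests were chosen with earlier results of these data known. Named genes were the 5, the 3 genes of each list with the smallest F p, a fixed set of receptors, enzymes and carriers, and the 5 closest genes by correlation. A few genes that this rule names are not reported here. Replicate numbers are shared between doses, but the labels tie them to no batch. Alternatives were other pseudocounts (0.1, 0.5), filters, scaling, library weights, a HINTW covariate, a replicate block, 2 groups only, no variance trend, dose rank and leaving out each library.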

Additional observations from a re-analysis of the deposited data

Results flagged for a closer look

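Of 24 groups of 8 libraries checked for a library far from the rest (5 genes and the ABCG8 to ABCG5 ratio at 4 doses), 3 held one, and chance gives about 1 in 20. ABCG5 stood at 29.36 TPM in 9 g/kg replicate 2, far above the other 7 libraries of that dose. ABCG5 stood at 4.11 TPM in 1.8 g/kg replicate 8, far below the others of that dose. The log2 ratio of ABCG8 to ABCG5 stood at 1.11 in control replicate 7, where the other controls were all at -1.41 or lower.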

How the results depend on the processing

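None of the 5 genes was called under any alternative, and the count of genes called, taken for each dose against control, the F test and the trend, stayed at 0 under every alternative run but one. It was not taken under the alternatives for pairs of doses. With library weights 8 genes were called at 9 g/kg against control, none of the 5 among them, with limma adjusted p-values of 0.0988 for ABCG8, 0.173 for ABCB11, 0.241 for ABCG5, 0.324 for CYP7A1 and 0.513 for AKR1D1, and the cause was not tested. With a replicate block the differences at 9 g/kg were 0.72 for ABCG5 and 0.95 for ABCG8, and no call changed. Whether the shared numbers pair the libraries is not known. The correlation of same-numbered deviations over 48 pairs ran from -0.31 to 0.37, with a median of 0.03 and 18 above 0.1. Of 32 libraries, 6 were closest to their own number. A median over all pairs cannot show whether some libraries were paired. A filter at a mean of 5 TPM left ABCG8 out. Depth is unknown from TPM, and the spread between libraries limits what could be called.

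Small differences turned sign, and the cause was not tested. With median-ratio rescaling the log2 difference of ABCB11 at 9 against 1.8 g/kg was 0.0105, and the correlations of ABCG5 with AKR1D1 and ABCG8 with ABCB11 were 0.00588 and 0.0802. With library weights ABCG5 at 18 against 1.8 g/kg was -0.0245 and the CYP7A1 trend 0.0029 per g/kg. Leaving out 1 library at a time gave, against control, -0.0643 to 0.34 for AKR1D1 at 1.8 g/kg, -0.0284 to 0.34 for ABCG8 and -0.18 to 0.00048 for ABCB11 at 18 g/kg. Between doses it gave -0.0773 to 0.0412 for ABCB11 at 9 against 1.8 g/kg, -0.10 to 0.15 for ABCG5 and -0.61 to 0.0512 for CYP7A1 at 18 against 1.8 g/kg, and -0.11 to 0.37 for AKR1D1 at 18 against 9 g/kg. The trends per g/kg ran from -0.000312 to 0.0158 for ABCG8, -0.00445 to 0.00396 for ABCB11 and -0.0204 to 0.00924 for CYP7A1. The log2 ratio of ABCG8 to ABCG5 differed from control by -0.25 to 0.38 at 18 g/kg. At 1.8 g/kg it kept its sign, at 0.10 to 0.72.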

Other observations

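In the reference table (assembly GRCg7b), ABCG5 and ABCG8 are neighbours 99 bases apart. The spans of CYP7A1 and AKR1D1 each lie wholly inside the span of another annotated gene, UBXN2B for CYP7A1 and the long noncoding LOC112533565 for AKR1D1. Both of those outer genes were among the 5 whose values followed CYP7A1 most closely, with r = 0.68 for UBXN2B (mean 5.34 TPM) and r = 0.70 for LOC112533565 (mean 1.63 TPM), while LOC112533565 gave r = 0.36 with AKR1D1, the gene inside it. The library kit keeps strand, but whether the counting used it is not given in the sources used here, so reads of nested genes may not be told apart. The long noncoding LOC121111322 lies inside the ABCB11 span, overlaps it by 1845 bases and gave r = -0.25 with it. On one side of ABCB11, G6PC2, a glucose-6-phosphatase catalytic subunit with a mean of 1.16 TPM, gave r = 0.59 with it. On the other side LOC121106449, with a mean of 0.21 TPM, overlaps 51.9% of the ABCB11 span. LOC107052929 overlaps 11.3% of the ABCG5 span and DYNC2LI1 4.0%. The limit on telling reads apart holds for these overlaps too. These neighbours were looked up after the correlations had been seen.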
